A study of Mus musculus with 69 samples.

Results

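Isolated distal open regions are stretches of chromatin that were accessible in wild-type (WT) mouse embryonic stem cells (ESCs), lay away from any promoter and had no other accessible region nearby. They were selected on measured peaks. The ATAC-seq peaks of all 6 libraries were merged where they overlapped by at least 1 bp, and a region was kept if it had a peak in both WT lists, lay over 1 kb from every annotated transcription start site (TSS) and over 25 kb from the next merged region, and was on an autosome other than chromosome 11. The merge gave 89596 regions. Both WT lists covered 62202 of these, 55782 of them on the autosomes used. Of the 37552 that were also distal to a TSS, 6702 were isolated, which is 17.8% of distal WT regions and 7.48% of all merged regions. The other 30850 distal WT regions and the 18230 WT regions within 1 kb of a TSS served for comparison.

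ATAC-seq inserts sequencing adapters into DNA that is not wrapped in nucleosomes, so a peak marks a promoter, an enhancer, an insulator or another site held open by bound factors. Enhancers in ESCs often lie in clusters, and a solitary open site far from genes can instead be an insulator bound by CTCF or the promoter of a transposable element. LINE-1 elements, the most abundant retrotransposons of the mouse genome, carry in their younger subfamilies a promoter made of short GC-rich repeat units arranged in tandem.

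WT cells were J1, an ESC line of strain 129S4/SvJae derived from the inner cell mass of the blastocyst. The mutant cells were Mut18 and Mut43, each a single clone of J1 in which both genes of the histone variant H3.3, H3f3a and H3f3b, were edited so that lysine 27 became arginine (H3.3K27R). Arginine at this position cannot be acetylated, and the study asked whether enhancers need H3K27ac, the acetyl mark on this residue. All lines were grown on feeder cells and then without them before harvest, and no group received a further treatment. Each line had 2 ATAC-seq and 2 mRNA-seq libraries described as independent biological replicates, and all 4 mutant libraries came from only 2 clones.

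The 6 peak lists held 63588 to 78536 peaks on chromosomes 1 to 19, X and Y, with WT replicate 1 the longest list. The lists carry no read numbers. Sequencing depth, which the study lists in its supplement, was not used here. The mRNA-seq libraries had 14992290 to 15143530 counts over 16259 genes. ESC markers were expressed in all 6 mRNA-seq libraries, with a summed level over 8 genes of 3884 to 4027 CPM (counts scaled to the library total) in WT and 4241 to 4420 in the mutants. H3f3a and H3f3b were expressed throughout, with 1551 to 1572 summed CPM in WT and 1397 to 1498 in the mutants, and read counts do not show the edited codon.

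Sequence around the summit of each region was read from GRCm38, the same build as mm10, in a window of 300 bases centred on the highest WT peak. These windows were often repetitive. At least 50% of the window was soft-masked, the reference's mark for repeats, in 3757 of the 6702 regions (56.1%), against 20.8% of other distal WT regions and 3.10% of TSS-proximal ones. Similarity between windows was scored with blastn as at least 100 aligned bases at 80% identity or more, and 3895 regions (58.1%) resembled at least 1 other isolated distal region. Grouped around the window with the most matches, 3322 regions (49.6%) fell into 16 families of at least 20, and the 3 largest families held 2735 regions, 40.8% of the total. Masking and families were looked at after the values had been seen and are descriptions with no test.

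The windows at the centre of these 3 families are printed as examples of the most frequent similar sequences, with each CG dinucleotide in capitals. More regions, 3380, belonged to no family.
Family 1 (1426 regions), chr10:65575098-65575397, plus strand: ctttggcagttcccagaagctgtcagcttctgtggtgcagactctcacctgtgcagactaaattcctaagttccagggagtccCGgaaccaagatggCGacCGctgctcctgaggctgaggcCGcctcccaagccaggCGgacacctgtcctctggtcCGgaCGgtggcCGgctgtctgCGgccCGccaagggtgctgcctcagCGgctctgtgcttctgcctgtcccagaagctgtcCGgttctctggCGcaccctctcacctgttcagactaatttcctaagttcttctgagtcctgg
Family 2 (1083 regions), chr13:85732597-85732896, plus strand: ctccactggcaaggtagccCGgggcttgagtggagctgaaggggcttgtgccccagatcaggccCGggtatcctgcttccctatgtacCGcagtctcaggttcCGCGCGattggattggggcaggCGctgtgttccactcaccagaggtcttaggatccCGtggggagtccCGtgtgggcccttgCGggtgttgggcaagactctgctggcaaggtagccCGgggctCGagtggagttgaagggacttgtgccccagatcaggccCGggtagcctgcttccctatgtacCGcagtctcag
Family 3 (226 regions), chr1:141797695-141797994, plus strand: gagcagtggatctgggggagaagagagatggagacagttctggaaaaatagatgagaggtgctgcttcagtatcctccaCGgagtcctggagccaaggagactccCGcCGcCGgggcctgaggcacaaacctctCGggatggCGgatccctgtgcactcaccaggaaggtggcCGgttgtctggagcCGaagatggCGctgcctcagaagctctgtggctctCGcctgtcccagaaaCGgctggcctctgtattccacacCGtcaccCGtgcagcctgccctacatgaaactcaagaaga

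All 3 are intergenic and rich in CG, with 13, 14 and 13 such dinucleotides. Over whole families the median was 17 per window in family 1, 17 in family 2 and 21 in family 3, against 3 in the 3380 regions of no family. Mean GC content was 63.5%, 62.2% and 65.7%, against 50.2% in regions of no family. The median window of each family was masked over its whole length. On the 6 kb to one side of the window the median masked share was 100% in all 3 families, and on the other side it was 35.0%, 35.7% and 33.9%, where regions of no family had 23.9% and 23.8%. Shifting the 800 bases around the summit against themselves by 100 to 300 bases gave a best match at a median shift of 212, 208 and 204 bases, and in 30.4%, 31.9% and 23.0% of the family's regions that best match covered at least 70% of positions, against 0.296% in regions of no family. In the smaller families, where no region reached that match, the median shift ran from 134 (family 7) to 250 bases (family 15). The median shift alone thus does not set the 3 largest families apart. Windows of families 1, 2 and 3 matched their own centre at a median identity of 90.7%, 92.7% and 87.1%, and no pair of the 3 centres could be aligned to each other at the settings used. The repeat families were not assigned to named elements, since no repeat annotation was used here. These families were not limited to isolated regions, since 1213, 841 and 205 of the other distal WT regions resembled the 3 centres, or 3.93%, 2.73% and 0.665%.

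Regions outside these families are shown by windows from single regions whose values follow further on, the first pair with CG dinucleotides in capitals.
Peak in WT lists only, chr16:55378772-55378971, plus strand: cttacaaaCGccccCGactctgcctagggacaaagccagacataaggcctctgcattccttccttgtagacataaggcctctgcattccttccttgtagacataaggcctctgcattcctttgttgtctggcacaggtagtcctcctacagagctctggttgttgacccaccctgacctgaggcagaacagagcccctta
Higher in all mutant lists, chr1:119256168-119256367, plus strand: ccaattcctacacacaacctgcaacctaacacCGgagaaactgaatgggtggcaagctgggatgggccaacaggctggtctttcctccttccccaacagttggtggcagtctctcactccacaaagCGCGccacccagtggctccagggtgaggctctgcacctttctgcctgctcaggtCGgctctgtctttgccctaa

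In the next pair capitals mark a motif, CATTCCA of TEAD factors in the first and TGANTCA of AP-1 in the second.
Peak in WT lists only, chr4:95846130-95846279, plus strand: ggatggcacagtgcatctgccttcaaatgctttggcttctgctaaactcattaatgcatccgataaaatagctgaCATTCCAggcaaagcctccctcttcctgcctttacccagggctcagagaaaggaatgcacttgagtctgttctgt
Lower in all mutant lists, chr7:125899107-125899256, plus strand: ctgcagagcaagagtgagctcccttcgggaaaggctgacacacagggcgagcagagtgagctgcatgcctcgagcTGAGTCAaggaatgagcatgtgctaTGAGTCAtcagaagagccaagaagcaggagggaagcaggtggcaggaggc

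Isolated distal regions were strong peaks. Peaks were ranked within each list by the authors' fold enrichment over background, from 0% to 100% for the highest, with tied peaks at their mean rank. The median rank of the isolated distal regions was 79.3% in WT replicate 1 and 73.2% in replicate 2, against 56.5% and 50.1% for other distal WT regions. High rank was not particular to them. Isolated WT regions within 1 kb of a TSS had 79.2% and 75.3%. Other distal WT regions 20 to 25 kb from the next merged region had 76.3% and 69.8%. For the isolated distal regions, further features were as follows. Their median width was 455 bp, the next merged region lay at a median of 44.3 kb and the nearest TSS at 29.7 kb, against 5.57 kb and 10.8 kb for other distal WT regions. Of the 6702, 4170 (62.2%) were intergenic at the summit, 2418 (36.1%) intronic and 114 (1.70%) exonic. They made up between 12.7% of distal WT regions on chromosome 19 and 22.7% on chromosome 3.

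Most isolated distal regions had a peak in the mutant lists as well. A peak was present in 5419 (80.9%) and 5656 (84.4%) in the Mut18 lists and in 5554 (82.9%) and 5435 (81.1%) in the Mut43 lists, a mean of 82.3% ± 1.66 (SD, n = 4). All 4 mutant lists held 4845 of them, or 72.3% (95% Wilson interval 71.2% to 73.4%), against 78.1% of all WT regions on the same autosomes. None of the 4 held 595, or 8.88% (8.22% to 9.58%), against 4.89% of all WT regions. The remaining 354, 394 and 514 had a peak in 1, 2 and 3 mutant lists. Intervals cover counting error only. Presence in WT was fixed by the selection, so a share below 100% in the mutants is no test of a change.

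Other distal WT regions, selected on the same WT lists, give the level to set this against. They had a peak in 83.7% and 88.4% in the Mut18 lists and in 87.2% and 84.6% in the Mut43 lists. The share for isolated distal regions was lower in each of the 4 mutant lists, by a mean of -3.66 percentage points ± 0.650 (SD, n = 4). An exact sign-flip permutation test over the 4 libraries gave a two-sided p of 0.12, the smallest that 4 libraries allow. Selected on WT replicate 1 alone, the mean difference was -0.742 points and no longer had the same sign in all 4 mutant lists (exact sign-flip p = 0.25). Selected on WT replicate 2 alone, it was -3.19 points. Presence rises with peak strength, and isolated regions were stronger. Within 5 bands of mean WT rank, weighted by the isolated regions, the mean difference was -10.0 points ± 0.488 (SD, n = 4), with the same exact p of 0.12. Nearly all strong regions were kept, with 96.3% of the 2829 isolated regions ranked above 80% present in all 4 mutant lists, against 97.9% of other distal WT regions. Between ranks of 40% and 60% the shares were 36.1% of 1365 and 67.8%, and between 20% and 40% they were 26.1% of 495 and 60.8%. Between 60% and 80% they were 74.7% of 1998 and 86.8%. The gap between isolated and other distal regions was thus wider at ranks below 60% and smallest above 80%. It was present in windows with and without much repeat sequence, as the plot of presence by WT rank shows.

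**Figure D1:**
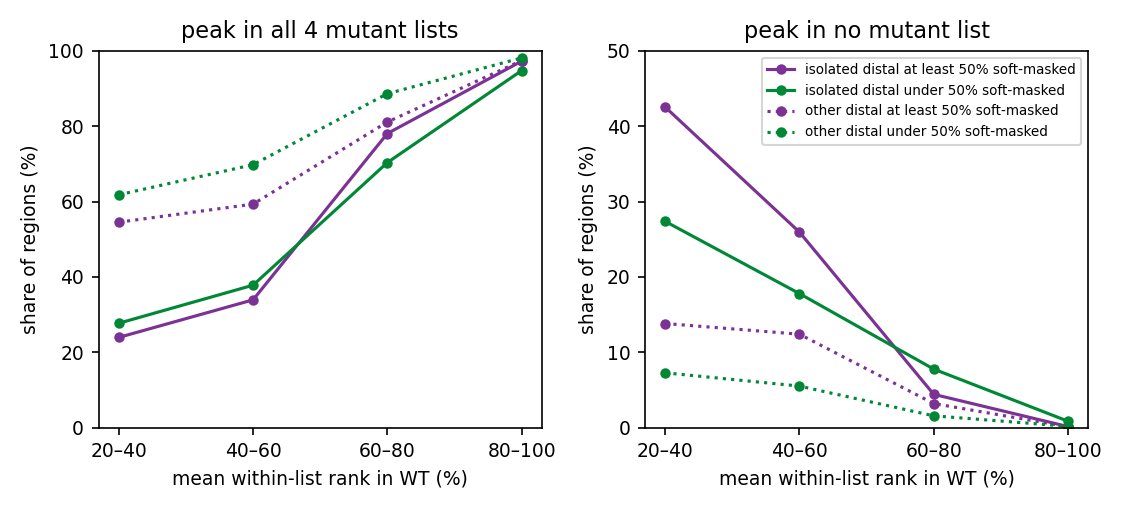
Share of WT regions with a peak in all 4 mutant lists (left) and in no mutant list (right), in percent, against the band of mean within-list rank in WT. Solid lines are isolated distal regions and dotted lines other distal WT regions, purple where at least 50% of the window was soft-masked and green otherwise. The solid lines lie below the dotted ones on the left at ranks under 60% for both kinds of window; the band from 0% to 20%, with 15 isolated regions, is left out.

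**Figure D2:**
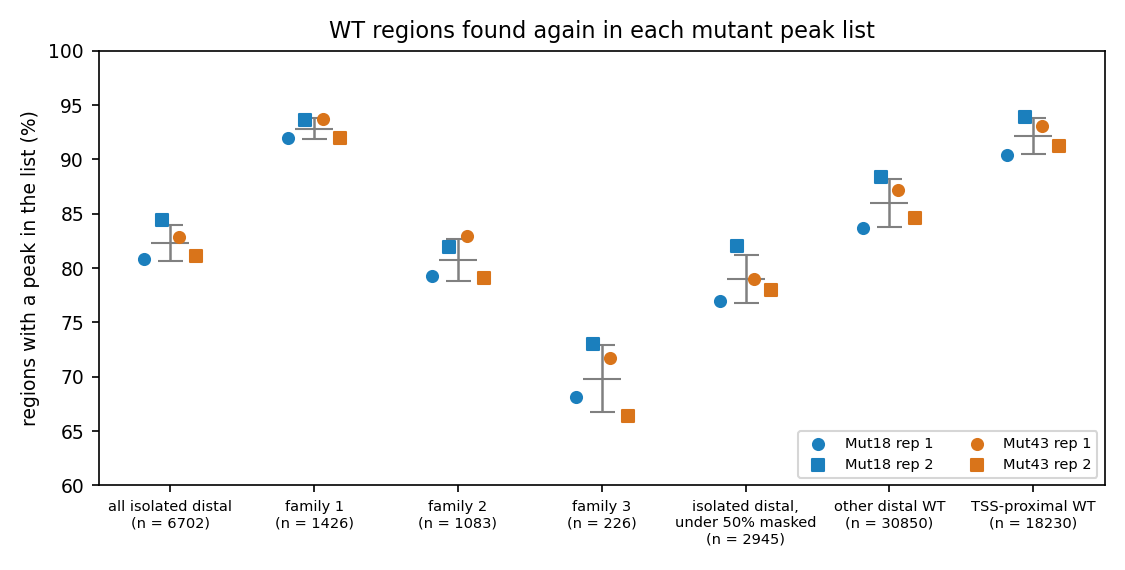
Share of each set of WT regions with a peak in each mutant list, in percent (axis from 60%), with blue for Mut18, orange for Mut43, circles for replicate 1 and squares for replicate 2. Grey bars give the mean and SD over the 4 libraries, and family 3, at 66.4% to 73.0%, lies below every other set.

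A WT list that took no part in the selection gives a fairer baseline. The same rule was applied to each list alone, with isolation still judged against the merged regions of all 6 lists. Of the 8129 isolated distal regions chosen on WT replicate 1 alone, 82.4% had a peak in WT replicate 2, and the mutant lists held 70.6% and 74.7% (Mut18) and 73.3% and 70.8% (Mut43). Chosen on WT replicate 2 alone, 7005 regions had a peak in WT replicate 1 in 95.7% and in the mutant lists in 78.0%, 81.8%, 80.2% and 78.3%. In both cases the other WT list held more of them than any mutant list did, and the mutant mean minus the WT list was -10.1 and -16.1 points. For other distal regions the same differences, mutant mean minus WT list, were -1.95 and -11.8 points. With all lists cut to the 63588 strongest peaks by -log10 q, they were -9.30 and -11.8 points for isolated and -2.51 and -4.90 for other distal regions. With 2 WT libraries these gaps have no test.

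Chosen on a mutant list instead, isolated distal regions were found in the WT lists. The 5992 regions chosen on Mut18 replicate 1 had a peak in 95.8% and 91.2% in WT, against 92.3% in the other Mut18 list. Starting from Mut18 replicate 2, Mut43 replicate 1 and Mut43 replicate 2, the WT lists held 93.9% and 88.6%, 95.1% and 89.7%, and 95.4% and 91.0%. In each of these 3 selections both WT lists held at least as large a share as the clone's own other list, which had 85.5%, 87.1% and 90.3%. The selection on Mut18 replicate 1 was the exception, since WT replicate 2 held less than the other Mut18 list. WT replicate 1 was also the longest list. With all lists cut to equal length, the WT lists held 91.3% and 89.2% in that selection, against 88.6% in the other Mut18 list. Outside that exception, the difference in presence went one way, from WT lists to mutant lists.

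**Figure D3:**
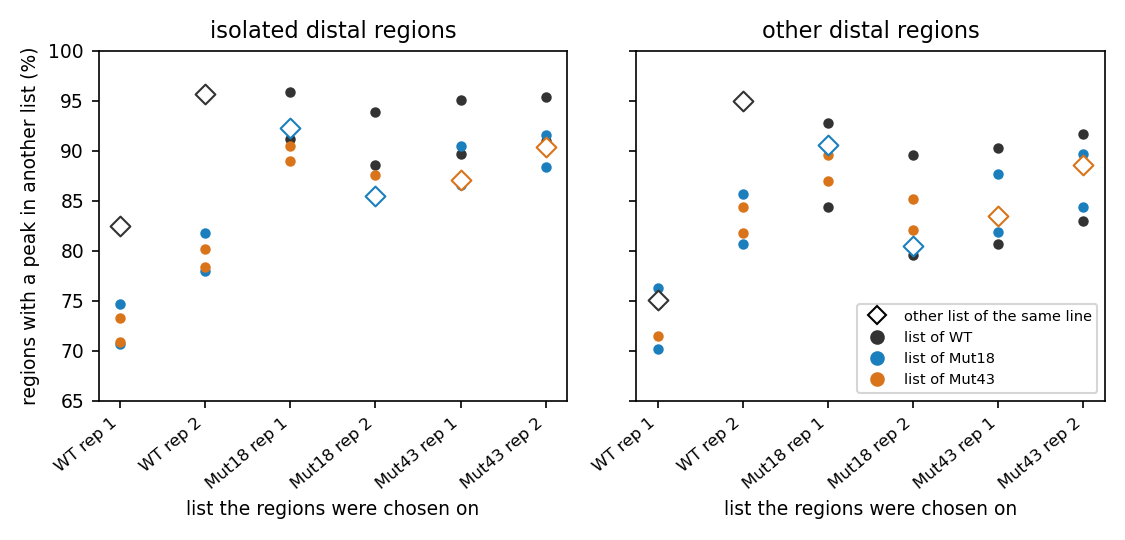
Share of regions chosen on 1 list (horizontal axis) that had a peak in each other list, in percent (axis from 65%), for isolated distal regions (left) and other distal regions (right). Open diamonds are the other list of the same line and filled points lists of other lines, black for WT, blue for Mut18 and orange for Mut43. For the isolated regions chosen on a WT list, the diamonds at 82.4% and 95.7% lie above all mutant points.

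Among regions with a peak in all 6 lists, peak strength within the list was compared. The 4845 such isolated distal regions had median ranks of 85.4% and 80.1% in the WT lists, 74.7% and 79.1% in those of Mut18, and 79.0% and 75.04% for Mut43. Every mutant median was below both WT medians, and the mean difference was -5.80 points. An exact permutation test over the 15 ways to choose 2 of 6 libraries gave a two-sided p of 0.133, where 0.067 is the smallest possible. Other distal regions in all 6 lists had 64.0% and 58.2% in WT and 57.2% to 61.1% in the mutants, which overlap, with a difference of -1.89 points, and TSS-proximal regions had -0.655 points. The 2 WT medians lay about as far from each other, and the difference was -3.43 points without WT replicate 1 and -8.91 without WT replicate 2. A percentile rank also depends on the length of the list, and with all lists cut to equal length the difference was -4.08 points (exact permutation p = 0.067).

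**Figure D4:**
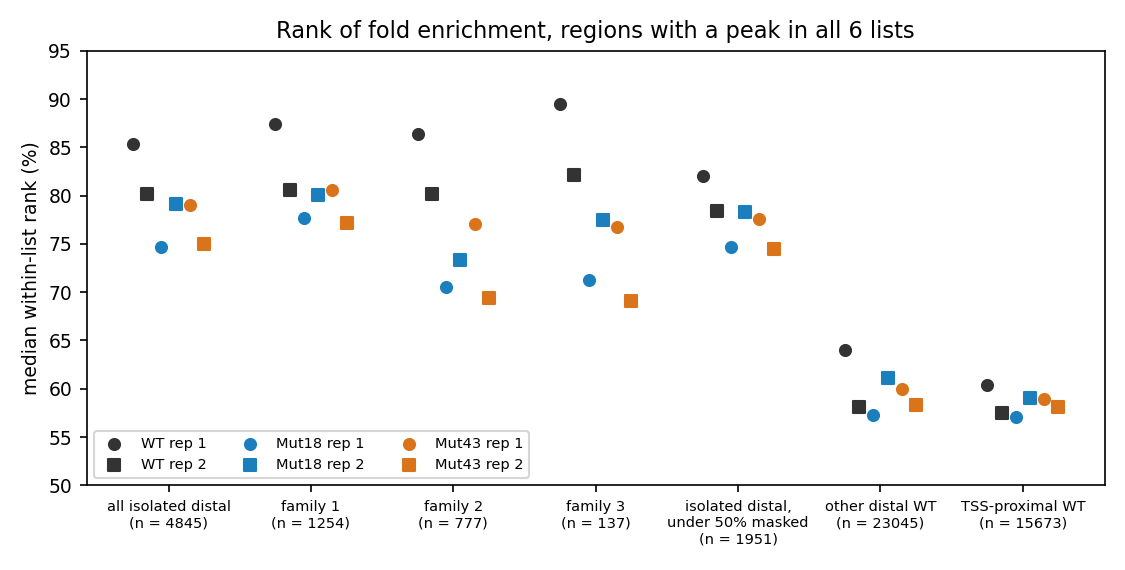
Median within-list rank of fold enrichment, in percent (axis from 50%), of regions with a peak in all 6 lists, 1 point a library, with black for WT, blue for Mut18, orange for Mut43, circles for replicate 1 and squares for replicate 2. In families 2 and 3 all 4 mutant points lie below both WT points, and in other distal regions the genotypes overlap.

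Each region was then tested with limma on normal scores of its within-list rank, over all 48984 merged regions with a peak in all 6 lists. At a Benjamini-Hochberg adjusted p under 0.05, 110 of the 4845 isolated distal regions fell in the mutants and 4 rose, which is 2.27% and 0.0826%, against a background of 0.584% and 0.131% of all regions tested. The median effect was -0.15 on the normal-score scale, against -0.04 over all regions. Both WT ranks lay above all 4 mutant ranks in 1593 of the isolated regions (32.9%), against 13.8% of all regions, and below all 4 in 308 (6.36%), against 9.35%. The calls needed both WT libraries, since 0 isolated regions were called without WT replicate 1 and 1 without WT replicate 2, when 541 and 865 still were lower at an unadjusted p under 0.05 and 203 and 63 higher. The count fell to 43 without Mut18 replicate 1 and to 46 without Mut43 replicate 2. Ranking by -log10 q in place of fold enrichment also gave 0 calls, with 982 lower and 103 higher at an unadjusted p under 0.05.

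The 3 largest repeat families had different shares. Of these 3, family 1 was kept most often, with a peak in 92.0% and 93.6% in Mut18 and 93.7% and 91.9% in Mut43, and 42 of 1426 (2.95%) were in no mutant list. Family 2 had 79.2%, 81.9%, 82.9% and 79.0% in the same order, with 120 of 1083 (11.1%) in no mutant list. Family 3 had 68.1%, 73.0%, 71.7% and 66.4%, with 39 of 226 (17.3%) in none. These 3 ranges do not overlap. In all 6 lists, the median ranks of family 1 were 87.4% and 80.6% in WT and 77.2% to 80.6% in the mutants, a difference of -5.13 points. Family 2 had 86.4% and 80.1% in WT and 69.4% to 77.0% in the mutants, a difference of -10.7, and family 3 had 89.5% and 82.1% against 69.1% to 77.5%, a difference of -12.1. Of the 110 isolated regions that fell in the rank test, 8 were in family 1, 39 in family 2 and 19 in family 3, or 0.638%, 5.02% and 13.9% of their tested regions. How reads that match several copies were placed is not given in the sources used here, and its part in these values was not tested. The reference is also of another mouse strain than J1, so copies can differ in number and position.

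Without matching for peak strength, the lower presence of isolated regions was larger in windows with little repeat sequence. Isolated regions at least 50% soft-masked had a peak in a mean of 84.9% over the 4 mutant lists, against 85.9% of other distal regions at least 50% masked. The 2945 regions under 50% soft-masked had a peak in 76.9% and 82.0% in Mut18 and in 79.0% and 78.0% in Mut43, and 292 (9.92%) had none. Other distal regions under 50% masked had 83.5% and 88.6%, and 87.2% and 84.6%, so the mean difference for such windows was -7.00 points, with an exact sign-flip p of 0.12. Their median rank difference in all 6 lists was -3.96 points, with 82.0% and 78.4% in WT and 74.5% to 78.3% in the mutants. In the rank test 32 of 1951 fell (1.64%, against 0.584% of all regions tested), calls that need both WT libraries as above. At like WT rank the gap was present in masked windows too. Between ranks of 20% and 40%, mutant lists held a mean of 39.7% of isolated and 71.8% of other distal regions at least 50% masked. Under 50% masked these were 48.8% and 78.8%. Between 60% and 80% the shares were 87.8% and 90.3% in masked windows, and 82.8% and 94.6% in the others.

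Motifs of 8 factors or factor groups were searched on both strands of each 300-base window. CTCF, the insulator protein that halts cohesin, had its consensus in 190 isolated regions (2.83%), against 6.07% of other distal WT regions and 0.557% of all 32851 RefSeq promoters of the same length. The octamer ATGCAAAT, bound by the pluripotency factor OCT4, stood in 241 (3.596%), against 3.66% of other distal WT regions and 1.74% of promoters. AP-1, the dimers of Jun and Fos proteins, had TGANTCA in 522 (7.79%), against 10.5% and 7.81%, and TEAD, the DNA-binding partners of YAP1, had CATTCCA in 263 (3.92%), against 6.09% and 4.29%. GGGNGTGGC of KLF factors stood in 149 (2.22%), against 5.70% and 5.76%. SOX-OCT, TCAAGGTCA of ESRRB and REST were found in 20, 24 and 7 regions, or 0.298%, 0.358% and 0.104%, against 0.263%, 0.989% and 0.159% of other distal WT regions and 0.0700%, 0.423% and 0.0335% of promoters. The end of SOX-OCT can share letters with the start of the octamer. These shares depend on repeat content. In windows under 50% masked, AP-1 stood in 13.5% of isolated and 11.4% of other distal regions. TEAD stood in 7.37% and 6.72% and the octamer in 4.96% and 3.24%, so these 3 were more frequent in isolated regions. CTCF, at 6.35% and 7.50%, and KLF, at 3.84% and 5.62%, remained less frequent. A match says only that these letters are present.

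Presence in the mutants varied with the motif. Isolated regions with the TEAD letters had a peak in 72.3% ± 2.49 (SD, n = 4 mutant lists), against 82.7% ± 1.64 without them, and 48 of 263 (18.3%) were in no mutant list. With AP-1 the values were 75.05% ± 2.20 against 82.9% ± 1.63, and 77 of 522 (14.8%) were in none. Regions with the CTCF consensus had 85.3% ± 3.07, and 5 of 190 (2.63%) were in none, and those with KLF had 85.7% ± 1.85, and 6 of 149 (4.03%) were in none. Octamer regions had 78.4% ± 2.97, with 23 of 241 (9.54%) in none. Since few repeat windows held these letters, the comparison was repeated in windows under 50% masked, where TEAD gave 73.4% ± 2.48 against 79.4% ± 2.18 and AP-1 74.3% ± 2.61 against 79.7% ± 2.12. Other distal regions of this kind had 81.5% ± 2.42 with TEAD and 86.3% ± 2.31 without, so the difference was not limited to isolated regions. These are descriptions with no test.

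Several factors that bind these motifs also changed in mRNA-seq, tested with edgeR's quasi-likelihood test over all 14058 genes that passed the count filter. At an adjusted p under 0.05 with any fold change, 24.5% of all tested genes fell and 23.5% rose. Of the 6 genes tested for TEAD and YAP, 4 fell and 1 rose. Tead3 had 203 ± 10.2 normalized counts (SD, n = 2) in WT libraries and 83.4 ± 10.1 (SD, n = 4) in mutant libraries, a log2 change of -1.28 (SE 0.120, adjusted p = 2.78e-08 from edgeR), and Tead2 fell by 0.63 on the log2 scale (adjusted p = 6.01e-10 from edgeR). Tead4 rose by 0.46, a call that ended without WT replicate 1 (adjusted p = 0.159 from edgeR). For AP-1, 6 of 7 tested genes fell and none rose. Jun fell from 313 ± 75.2 to 145 ± 15.3 normalized counts, a log2 change of -1.11 (SE 0.120, adjusted p = 2.14e-07 from edgeR). Fos had raw counts of 215 and 33 in WT and 34 to 37 in the mutants, so its call rested on WT replicate 1, and without that library its log2 change was 0.16 (adjusted p = 0.702 from edgeR). Fosb was alike in this, with a log2 change of 0.11 without WT replicate 1.

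Among CTCF and cohesin genes 3 of 9 tested rose and 3 fell, none beyond 2-fold. The calls of the cohesin subunits Rad21 and Smc3, which rose, ended without WT replicate 2 (adjusted p = 0.0781 and 0.131 from edgeR), and that of Nipbl, which fell, without WT replicate 1 (adjusted p = 0.254 from edgeR). Ctcf itself rose by 0.12 on the log2 scale (SE 0.0408, adjusted p = 0.0210 from edgeR, and 0.124 without WT replicate 1), and the cohesin subunits Stag1 and Stag2 fell by 0.48 and 0.62. Of 13 pluripotency factors 10 rose and 1 fell. The largest rise was that of Prdm14, a repressor of differentiation, from 147 ± 14.9 to 361 ± 10.8 normalized counts, a log2 change of 1.29 (SE 0.0903, adjusted p = 4.16e-10 from edgeR), while Pou5f1, which encodes OCT4, fell by 0.27. Rest, the repressor of neuronal genes, rose by 0.61 (SE 0.0565, adjusted p = 2.17e-08 from edgeR), and of the 3 genes of its list 2 rose. Of 9 genes of chromatin remodellers and acetyltransferases 2 fell and none rose.

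The strongest isolated distal regions, chosen by their mean rank over all 6 lists, are given as a description. The highest mean rank was that of the region at chr6:103649049-103649326, in an intron with Chl1 as the nearest gene of the count table at 48.4 kb, which was the top peak in every list with a fold enrichment of 39.9 and 42.0 in WT and 42.1 to 44.1 in the mutants. The next were at chr1:195371666-195371981, chr3:159939381-159939706, chr12:78350867-78351176 and chr17:70963639-70963890, with ranks of 99.98% or more in all 6 lists. From the top region on, 29.7%, 93%, 93%, 0% and 15.7% of the window was soft-masked, and none held a searched motif. No filter for artefact-prone sites was applied here, and whether these peaks are regulatory elements was not tested. Their nearest genes were Cr2 at 195 kb, Wls at 90.9 kb, Gphn at 124 kb and Myl12b at 12.1 kb. Wls, which encodes a carrier for secreted Wnt proteins, fell from 602 ± 56.4 to 284 ± 51.7 normalized counts (log2 change -1.08, SE 0.106, adjusted p = 5.02e-08 from edgeR). Gphn, which encodes the synaptic scaffold gephyrin, fell from 183 ± 20.9 to 75.3 ± 16.1 (log2 change -1.28, SE 0.148, adjusted p = 4.75e-07 from edgeR).

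Of the regions with no mutant peak, those highest in WT were well inside the upper part of the lists. The intergenic region at chr16:55378700-55379110, 439 kb from Nfkbiz, ranked at 88.2% and 97.2% in WT, with fold enrichments of 10.6 and 14.4. No base of its window was soft-masked. The sequence printed above nevertheless holds a short stretch repeated in tandem, so absence of masking does not mean absence of repeats here. Whether this repeat affected the placement of reads was not tested. An intronic region at chr4:95845939-95846355, 3.27 kb from a TSS of Fggy and with the TEAD letters shown above, ranked at 90.4% and 81.0%. A region at chr3:41769713-41770318 near D3Ertd751e belongs to family 3 and ranked at 89.5% and 90.6%, and one at chr5:42703897-42704740, 528 kb from Cpeb2, belongs to family 2 and ranked at 84.4% and 86.3%. The last, at chr3:62801152-62801342, 196 kb from Gpr149, ranked at 85.4% and 82.6%. Of these 5 nearest genes, Nfkbiz, Fggy and Cpeb2 fell, by 0.70, 0.59 and 0.64 on the log2 scale, D3Ertd751e had a log2 change of 0.18 and Gpr149 one of -1.31 (adjusted p = 0.158 and 0.0520 from edgeR). Gpr149 was low throughout, with 12.7 ± 1.35 normalized counts in WT and 5.05 ± 3.79 in the mutants. The calls of Nfkbiz, Fggy and Cpeb2 ended without WT replicate 1 (adjusted p = 0.0950, 0.192 and 0.111 from edgeR).

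The regions in all 6 lists with the widest gap between genotypes were picked for that gap, so the lack of overlap is fixed by the choice, and p-values are adjusted over all regions tested. At chr7:125899049-125899355, an intronic region with 2 AP-1 matches 33.8 kb from D430042O09Rik, WT ranks were 93.8% and 88.9%, those of Mut18 38.6% and 37.7%, and those of Mut43 37.7% and 44.2%. The fitted effect was -1.64 on the normal-score scale (SE 0.190, adjusted p = 0.0109 from limma). D430042O09Rik fell from 135 ± 14.8 to 67.5 ± 5.45 normalized counts (log2 change -0.999, SE 0.139, adjusted p = 5.29e-06 from edgeR). The family 3 region at chr7:95533095-95533464 had 88.2% and 77.5% in WT and 22.8% to 33.2% in the mutants, and the intronic region at chr10:105469823-105470373, 65.6 kb from Tmtc2, had 91.4% and 94.5% against 22.9% to 47.8%. Both fell, with adjusted p-values from limma of 0.0125 and 0.0127. The nearest gene of the family 3 region was Tenm4, at a distance of 638 kb. Tenm4 and Tmtc2 fell by 0.67 and 1.38 on the log2 scale (adjusted p = 9.73e-06 and 0.00862 from edgeR). Tmtc2 was low throughout, with 14.7 ± 1.34 normalized counts in WT and 5.56 ± 1.95 in the mutants. The call of Tmtc2 ended without WT replicate 1 (adjusted p = 0.0735 from edgeR).

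In the other direction, the intergenic region at chr1:119255958-119256397 ranked at 50.9% and 41.3% in the WT lists, at 87.4% and 92.6% in those of Mut18 and at 79.0% and 87.8% in those of Mut43. This is the region printed above as higher in the mutants, with a fitted effect of 1.24 (SE 0.214, adjusted p = 0.0282 from limma). Its nearest gene, at 166 kb, was Inhbb, which encodes a subunit of the secreted factors inhibin and activin, and it rose from 278 ± 11.1 to 381 ± 15.5 normalized counts (log2 change 0.45, SE 0.0777, adjusted p = 6.47e-05 from edgeR). A region at chr8:78860901-78861314 near Lsm6 rose as well, from 38.3% and 36.1% to 64.9% to 76.7% (adjusted p = 0.0447 from limma), with a log2 change of 0.07 for Lsm6. The region at chr1:55279194-55279403 near Boll had 35.3% and 25.9% in WT and 59.1% to 74.8% in the mutants and did not pass (adjusted p = 0.0590 from limma).

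The clones were compared in the same way. The mean share with a peak was 82.6% in Mut18 and 82.0% in Mut43, a difference of -0.642 points (exact permutation test, two-sided p = 1, smallest possible 0.33). A peak in both Mut18 and no Mut43 list was seen in 67 isolated regions (1.00%) and the reverse in 68 (1.01%), against 0.803% and 0.771% of all WT regions. At least 1 Mut18 list and no Mut43 list held 258 (3.85%) and the reverse was seen in 231 (3.45%), against 3.00% and 2.65% of all WT regions. In the rank test 0 of 4845 regions were called between the clones by limma and 369 (7.62%) had an unadjusted p under 0.05, against 5.18% of all regions. The highest-ranking regions seen in Mut18 only had Rbfox1 (chr16:6156986-6157219, 192 kb away), Ly6c1 (chr15:75282156-75282353, 233 kb) and Lppr1 (chr4:49002868-49003021, 56.3 kb) as nearest genes. Their ranks were 49.5% to 68.6% in Mut18. Those seen in Mut43 only had Ttc5 (chr14:50661881-50662243, 110 kb away), Atp5f1 (chr3:105899774-105900063) and Ywhaq (chr12:21899265-21899421, 482 kb) as nearest genes, with ranks of 68.9% to 80.2% in Mut43. Of the nearest genes that could be tested, Ly6c1, Ttc5, Atp5f1 and Ywhaq had log2 changes of -0.58, 0.12, -0.36 and 0.03 in mutants against WT, and none passed that test. Atp5f1, which encodes a subunit of the mitochondrial ATP synthase, differed between the clones, with 5047 and 5212 normalized counts in the WT libraries, 2628 and 2733 in those of Mut18, and 5464 and 5171 in those of Mut43 (log2 difference Mut43 minus Mut18 0.99, adjusted p = 5.69e-14 from edgeR). The region assigned to Atp5f1 lay 54.1 kb from its nearest TSS and held the CTCF consensus. Its summit was in an intron, a label that covers any annotated gene. This region had WT ranks of 80.3% and 84.9%, no peak in either Mut18 list, and ranks of 76.1% and 68.9% in Mut43.

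Values just inside and just outside the distance limits were as follows. Regions 25 to 30 kb from the next merged region had a peak in all 4 mutant lists in 72.9% of 1183, those 20 to 25 kb away in 73.7% of 1699, and those over 100 kb away in 75.3% of 798. Isolated WT regions within 1 kb of a TSS had 90.3% of 1631, and those 1 to 2 kb away 72.6% of 201.

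Genes near isolated distal regions were lower in the mutants more often than genes at large. The nearest TSS of a gene in the count table assigned 2755 genes to the 6702 regions, of which 2249 passed the count filter. At an adjusted p under 0.05 and over 2-fold, 380 (16.9%) fell and 35 (1.56%) rose, against 5.64% and 3.28% of all 14058 tested genes. Genes nearest to other distal WT regions had 7.03% and 3.18%, and those nearest to TSS-proximal regions 5.88% and 2.13%. The median log2 change of the 2249 genes was -0.21, with -0.19 for Mut18 and -0.22 for Mut43, against -0.0042 over all genes. The share that fell was high whether the region was kept or not, at 17.4% of the 1898 genes nearest to regions in all 4 mutant lists and 27.5% of the 393 nearest to regions in no mutant list. Counted by region, the nearest gene fell for 133 of 468 in no mutant list (28.4%) and for 805 of 3806 in all 4 (21.2%), against 13.6% and 8.23% for other distal WT regions. Nearest does not mean regulated, and a gene set among isolated regions lies in sparsely populated sequence by construction.

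**Figure D5:**
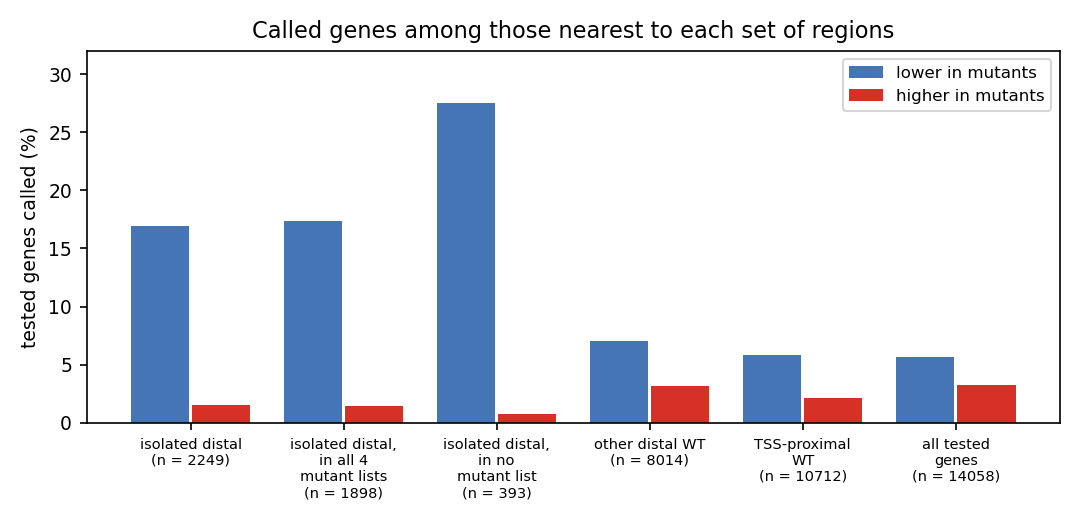
Tested genes called lower (blue) or higher (red) in the mutants at over 2-fold, in percent, among the genes nearest to each set of regions, with the number of tested genes below each name. The bars for genes lower in the mutants reach 16.9% for isolated distal regions and 27.5% for those in no mutant list, against 5.64% of all tested genes.

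Markers of fibroblasts, cells commonly used as feeders for ESCs, moved in the same direction. Of 8 such genes 7 were tested and 5 fell, 3 of them over 2-fold, and none rose, where 24.5% of all tested genes fell and 23.5% rose at any fold. Their summed level was 189 to 275 CPM in WT and 123 to 165 in the mutants, highest in WT replicate 1. Raw counts of Col3a1 were 863 and 262 in WT and 97 to 147 in the mutants, while Lum was at 0 in 3 of the 6 libraries. Fewer cells of a type and less RNA per cell cannot be told apart in bulk libraries, and the part of such cells in the nearest genes was not tested. Without WT replicate 1, 335 of 2307 nearest genes fell, and Col1a2 and Dcn no longer passed. Of the 5 genes tested among primitive endoderm markers, 1 rose and 1 fell, and of 3 trophoblast markers tested 1 rose and 2 fell, against the same background.

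The nearest gene that fell most was Mirg, a non-coding RNA of the imprinted Dlk1-Dio3 cluster, with 338 and 336 normalized counts in the WT libraries, 9.01 and 14.2 in those of Mut18 and 12.2 and 16.2 in those of Mut43 (log2 change -4.69, SE 0.148, adjusted p = 3.67e-15 from edgeR). It was the nearest gene of 2 isolated distal regions, both with a peak in all 6 lists. At chr12:109749663-109750277, 1.70 kb from Mirg, ranks were 53.6% and 58.6% in WT and 77.3% to 90.4% in the mutants. At chr12:109790392-109790798, 42.4 kb from Mirg, they were 71.8% and 55.9% against 32.7% to 38.8%. The accessible regions assigned to this gene were thus still called where its RNA was nearly lost, the nearer ranking higher and the farther lower. Peg13, an imprinted non-coding RNA, fell from 67.5 ± 6.73 to 6.32 ± 3.36 normalized counts (log2 change -3.39, SE 0.293, adjusted p = 8.65e-09 from edgeR) and had 5 isolated regions, at 77.8 to 380 kb, of which 3 were in all 4 mutant lists and 1 in none. Calcr, which encodes the calcitonin receptor, fell from 199 ± 22.3 to 26.5 ± 7.80, and its family 1 region ranked at 97.9% and 96.0% in WT and 84.7% to 94.4% in the mutants.

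Col6a3, a collagen gene, and Mgll, which encodes monoglyceride lipase, also fell, but with 212 and 52.0 and with 306 and 42.1 normalized counts in the WT replicates. Without WT replicate 1 their log2 changes were -1.56 and -0.88, in place of -2.91 and -2.93. The region in an exon at chr1:90775683-90776157, 2.47 kb from a TSS of Col6a3, had WT ranks of 94.3% and 88.9%, Mut18 ranks of 38.6% and 23.1%, and Mut43 ranks of 71.7% and 67.4%. Of the genes that rose, Inpp5d, which encodes a lipid phosphatase of signalling, went from 390 ± 3.76 to 1109 ± 74.4 normalized counts (log2 change 1.51, SE 0.0688, adjusted p = 8.36e-13 from edgeR), with 1 region 19.8 kb away whose ranks overlapped between genotypes. Atp6v0a4, a subunit of the proton pump of acid compartments, Slc1a1, a glutamate transporter, Rec114 and Hydin rose by 1.58, 1.58, 1.56 and 1.52 on the log2 scale, from 44.1 and 45.9 normalized counts in the WT libraries for Atp6v0a4 and means of 21.5, 17.6 and 23.0 for the others. The region of Slc1a1 at chr19:28806755-28807309 ranked at 83.8% and 89.4% in WT and 92.7% to 97.0% in the mutants, which do not overlap, and its other region overlapped between genotypes.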

How the data were processed

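The authors deposited 1 table of mRNA-seq read counts per gene, without normalization, and 6 ATAC-seq peak lists, 1 per library. For each peak the deposited lists give a fold enrichment, which is a ratio over background, and significance as -log10 values, and every peak had a -log10 q over 6. Per the labels, the processing notes name Bowtie2 2.3.4.2, SAMtools, deepTools 3.3.0 and MACS2 for ATAC-seq, STAR and DESeq2 for mRNA-seq, and the build mm10. Handling of multi-mapping reads, duplicates and the transposase offset is not given in the sources used here.

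Samples were grouped by line from their labels. Peaks were merged and ranked in Python 3.11.15, with TSSs from GENCODE M21 and sequence from RefSeq GRCm38.p6, and windows were compared with blastn 2.17.0. Ranks were tested with limma 3.58.1 and counts with edgeR 4.0.16 in R 4.3.3, with a minimum count of 10 (total 15), TMM normalization and Benjamini-Hochberg adjustment over all features, both tested on simulated data. Left out were 4 rows of the count table with repeated date-like names, leaving 16259 genes, of which 15644 matched the annotation directly, 474 by an older symbol and 141 not. Replicate pairs were not duplicates, since their counts gave a chi-square per degree of freedom of 1.78 to 3.19. That cultures were separate is known only from the design text.

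Named regions were the 5 highest-ranking in all 6 lists, the 5 highest in WT with no mutant peak, 3 seen in each clone only, and the 3 in each direction with the widest gap between genotypes. Named genes were the nearest genes of these regions, the 5 nearest genes in each direction with the largest change (over a mean normalized count of 50 in either genotype and with 1 direction in every library), and fixed factor and marker lists. A withheld item is not reported here. Regions, lists and tests were chosen with earlier results of these data known. Alternatives covered distances, TSS sets, thresholds, merging, ranking, tools and left-out libraries.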

Additional observations from a re-analysis of the deposited data

Results flagged for a closer look

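Single libraries stood apart from the other mutant libraries in 11 of 123 values tested, where chance gives about 1 in 20. The gap of that library to its nearest neighbour over the group's range was 0.926 for the rank of the region near Lsm6, 0.854 for that at D430042O09Rik, 0.968 for that near Tenm4 and 0.858 for that near Tmtc2. In normalized counts it was 0.894 for Junb, 0.856 for Mgll, 0.847 for Nipbl, 0.889 for Rcor1, 0.928 for Smarca4, 0.908 for Tead2 and 0.837 for Thy1. Each exceeded Dixon's critical value for a group of 4 samples.

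Of 94 named genes tested between the clones with edgeR, 5 differed, against 0.327% of all tested genes. The log2 difference, Mut43 minus Mut18, was 0.988 for Atp5f1, -0.411 for Col1a1, 0.186 for H3f3b, 0.383 for Tbx3 and -0.446 for Wls.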

How the results depend on the processing

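Over 96 alternatives, 74 counted as the same, 18 moved a value and 4 reversed one. For the difference from other distal regions, the rank difference and the difference between the clones, the same meant only the same sign, whatever the size. Within bands of WT rank, for example, the difference from other distal regions was -10.0 points in place of -3.66. For the other results a like size was also required. Alternatives restricted to windows under 50% soft-masked, to regions outside the largest families or to regions chosen on a mutant list were added after seeing the data. Isolation at 10 kb and 50 kb gave 14827 and 2794 regions. The share present in all 4 mutant lists was 73.8% at 10 kb, 71.0% with a -log10 q of at least 10, 75.1% in lists of equal length, 66.2% in windows under 50% masked, and 60.9% to 74.8% with 1 library left out. The difference from other distal regions kept its sign throughout, at -3.89 to -0.742 points with 1 library left out. So did the rank difference, at -8.91 to -3.43 points with 1 library left out and -8.95 to -3.43 over all 20 alternatives. The difference between the clones was -2.45 to 1.17 points with 1 library left out, so its sign turned. For regions chosen on 1 WT list, the mean over both WT lists of the difference between the other line's lists and the same line's was -13.1 points and became -10.5 in lists of equal length, and for regions chosen on 1 Mut18 or Mut43 list it was 1.38 and 2.32 points. The rank test called 0 isolated regions on -log10 q and 0 to 96 with 1 library left out. Without a fold threshold 1262 nearest genes were called, with 1 library left out 370 to 460, and by DESeq2 394. The causes were not tested. Read depth behind the peaks was not taken into account, and 2 libraries a line limit the exact tests.

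The replicate numbers did not pair the samples, since deviations of same-numbered libraries correlated at -0.030 to 0.031 in mRNA-seq and -0.012 to 0.032 in ATAC-seq. With the replicate block the rank difference was -5.80 points, the difference between the clones -0.642 points, the rank test called 106 isolated regions and 415 nearest genes were called.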

Other observations

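The 13 smaller repeat families also varied in presence. Family 10, with 32 regions, had a peak in 31 or 32 of them in every mutant list, and family 12, with 29 regions, had a mean of 69.8% ± 4.34 (SD, n = 4 mutant lists), with 7 regions in none. Families 4 and 5, the next largest after the 3 described above, had means of 87.9% ± 1.40 and 92.4% ± 1.35, and their windows had fewer CG dinucleotides than base composition gives, at a median observed over expected ratio of 0.0781 and 0.0972, against 0.551, 0.590 and 0.639 in families 1, 2 and 3. Across chromosomes the share of isolated distal regions present in all 4 mutant lists ran from 66.9% on chromosome 19 to 76.8% on chromosome 10. These values are descriptions with no test.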
